A study of Mus musculus with 12 samples.

Results

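The DNA replication genes examined here are 41 mouse genes, listed by name, whose products license and fire replication origins, copy DNA at the fork, supply its nucleotides or restore chromatin behind it. All 41 had at least 30 reads summed over the 12 samples, and they belong to the 15138 genes that passed this filter. From spleens of mice of the strain Tg4 Nr4a3-Tocky Il10-GFP, CD4+ T cells that were both Nr4a3-Blue+ and Nr4a3-Red+ were sorted, and their mRNA was sequenced from its 3′ end, with 1 library per mouse and 3 mice per group. Every mouse carried the Tg4 T cell receptor transgene, so its T cells largely share 1 specificity, for a peptide of myelin basic protein (MBP). The Timer protein of these mice is made when Nr4a3 is transcribed and changes from blue to red as it ages, so only cells with recent and earlier receptor signalling entered the gate. Each mouse had been immunized with [4Y]-MBP at 4 mg/kg, was given 0.5 mg of antibody after 24 h, was challenged again with peptide at 0.4 mg/kg a further 30 min later and was killed 12 h after that. The antibody was an isotype pool of rat IgG1 and rat IgG2a, anti-PD-L1, anti-Lag3 or the combination of both blocking antibodies (CB). Age and sex are not given per mouse in the labels. The 4 conditions were stained with CD4 antibodies of different colours and sorted together, so that stain and treatment cannot be told apart.

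Before a cell divides, Cdc6 and Cdt1 load the ring-shaped Mcm2-7 helicase onto origins in an inactive form. In S phase Cdc45 and the GINS complex turn it into the working CMG helicase, primase and polymerase alpha start each strand, and polymerases delta and epsilon extend it, held to DNA by the Pcna clamp. E2F transcription factors switch on many of these genes late in G1, whereas genes of mitosis peak later in the cycle. Naïve CD4+ T cells rest outside the cell cycle and enter it after stimulation through the T cell receptor. The comparisons ask whether blockade of PD-L1, Lag3 or both changed the level of these transcripts in responder cells on reactivation.

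Levels are given as CPM, which are counts brought to the same library total and scaled between libraries by the trimmed mean of M values (TMM). A gene was called where edgeR's quasi-likelihood test gave a Benjamini-Hochberg adjusted p under 0.05 over all 15138 genes. Reads on genes were between 16449370 and 22151025 per library (median 19176439), and each of the DNA replication genes had between 3520 and 247348 reads over the 12 libraries. As no molecular identifiers are described in the sources used here, the precision seen in counts may cover amplified copies as well as molecules. Transcripts of Cd3d and Cd4 were plentiful in every library, at 541 to 672 CPM and 202 to 318 CPM. Nr4a3, whose Timer reporter set the sorting gate, was the lowest of the listed CD4 T cell markers, at 8.48 to 33.1 CPM. Ighm was at 323 to 412 CPM, while the other 7 B cell markers stayed at or below 9.24 CPM and, of the 2 CD8 T cell markers, Cd8a stayed at or below 3.24 CPM and Cd8b1 was at 24.4 to 46.4 CPM. A level in a sorted population does not separate fewer cells in S phase from less transcript in each of them.

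Promoters of 4 members are shown because these genes had the smallest p-values between CB and isotype, Ung and Chaf1a with higher and Rrm1 and Mcm5 with lower levels under CB. The sequences are RefSeq's, on GRCm38.p6, and run from 250 bases before to 50 bases after RefSeq's transcription start, all on the plus strand. Gene coordinates given below are from GENCODE M21, whose starts can differ, and the Mcm5 window ends before its GENCODE start. The E2F-type words searched were TTTCCCGC, TTTCGCGC, TTTGCCGC and TTTGGCGC, each also without its first T, on either strand. Capitals mark the matches of 7 letters, which lack that first T, and neighbouring matches may overlap.
Ung, chr5:114130185-114130484: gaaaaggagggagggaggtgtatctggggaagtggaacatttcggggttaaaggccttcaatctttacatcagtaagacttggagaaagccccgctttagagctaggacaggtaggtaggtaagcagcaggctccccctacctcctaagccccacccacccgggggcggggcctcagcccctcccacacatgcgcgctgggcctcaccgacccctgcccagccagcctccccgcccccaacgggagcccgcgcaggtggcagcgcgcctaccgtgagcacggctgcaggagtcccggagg
Rrm1, chr7:102441445-102441744: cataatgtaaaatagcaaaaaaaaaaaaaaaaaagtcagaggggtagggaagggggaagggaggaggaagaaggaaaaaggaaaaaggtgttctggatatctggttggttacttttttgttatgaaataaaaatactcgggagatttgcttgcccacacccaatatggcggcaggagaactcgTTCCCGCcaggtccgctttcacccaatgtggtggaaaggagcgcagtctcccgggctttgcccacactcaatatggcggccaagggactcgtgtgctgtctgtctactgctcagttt
Mcm5, chr8:75109259-75109558: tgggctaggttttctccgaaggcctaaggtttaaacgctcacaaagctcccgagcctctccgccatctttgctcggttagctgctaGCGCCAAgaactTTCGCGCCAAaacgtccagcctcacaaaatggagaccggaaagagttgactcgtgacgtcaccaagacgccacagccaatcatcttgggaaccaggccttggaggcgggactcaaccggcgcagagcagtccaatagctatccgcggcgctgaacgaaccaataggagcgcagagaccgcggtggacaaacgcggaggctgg
Chaf1a, chr17:56040166-56040465: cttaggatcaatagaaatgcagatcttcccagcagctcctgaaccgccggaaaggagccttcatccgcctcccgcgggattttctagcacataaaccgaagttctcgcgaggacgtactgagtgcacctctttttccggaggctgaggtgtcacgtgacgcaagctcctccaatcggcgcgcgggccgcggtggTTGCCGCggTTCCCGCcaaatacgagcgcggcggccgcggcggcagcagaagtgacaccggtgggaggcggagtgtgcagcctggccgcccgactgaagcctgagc
The Ung window held 0 of these words, Rrm1 held 1, Chaf1a held 2 and Mcm5 held 3. Of the 34 members found in the promoter table, 22 (64.7%) held at least 1 such word. The shares were 10.9% of all 27025 genes in it and 4 of 22 mitotic genes (18.2%). Other replication genes had 39.2%, and E2F family members and regulators of the G1 to S transition had 52.9%. With the words of 8 letters the shares were 35.3% of the members and 2.6% of all genes. They were 21.6% of other replication genes and 41.2% of the E2F and G1 to S list. The word TTTGAA, known as the cell cycle homology region of many mitotic promoters, was found in 11.8% of members, 20.2% of all genes and 77.3% of mitotic genes. CCAAT was found in 61.8% of members against 41.1% of all genes, and CACGTG in 20.6% against 8.09%, both read on either strand. These are matches of letters and not mapped binding sites. The 22 members with a 7-letter E2F word had a median log2 fold change of −0.10 between CB and isotype and the 12 without one had −0.02, as a description only. The 7 members not matched in the table were Mcm4, Gins1, Gins2, Gins4, Prim2, Pole and Rfc2.

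Between CB and isotype, 649 of the 15138 genes (4.29%) were called, and 1 of the 41 DNA replication genes (2.44%), Ung, was among them. Of all genes, 2.33% were called higher and 1.96% lower under CB. The members' differences were small in both directions, with 15 positive and 26 negative log2 fold changes. Their median was −0.07, beside 0 over all genes tested, and their median size without sign was 0.15, beside 0.39. All genes tested include mean counts down to 2.5 per library, and this size was not computed for genes with counts like the members'. The 2 sizes are therefore not compared at equal depth. Higher counts give a test more power, and among the 2570 genes whose mean counts were like those of most members the share called was 14.5%. The 95% intervals of 24 members lay within 0.5 of 0 on the log2 scale and those of 39 within 1, and the other 2 were Gins1 and Rpa3. The intervals of 10 members did not include 0, 5 above and 5 below it, before adjustment for multiple testing. Over all 15138 genes, 2256 had an unadjusted p under 0.05 in this comparison.

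**Figure D1:**
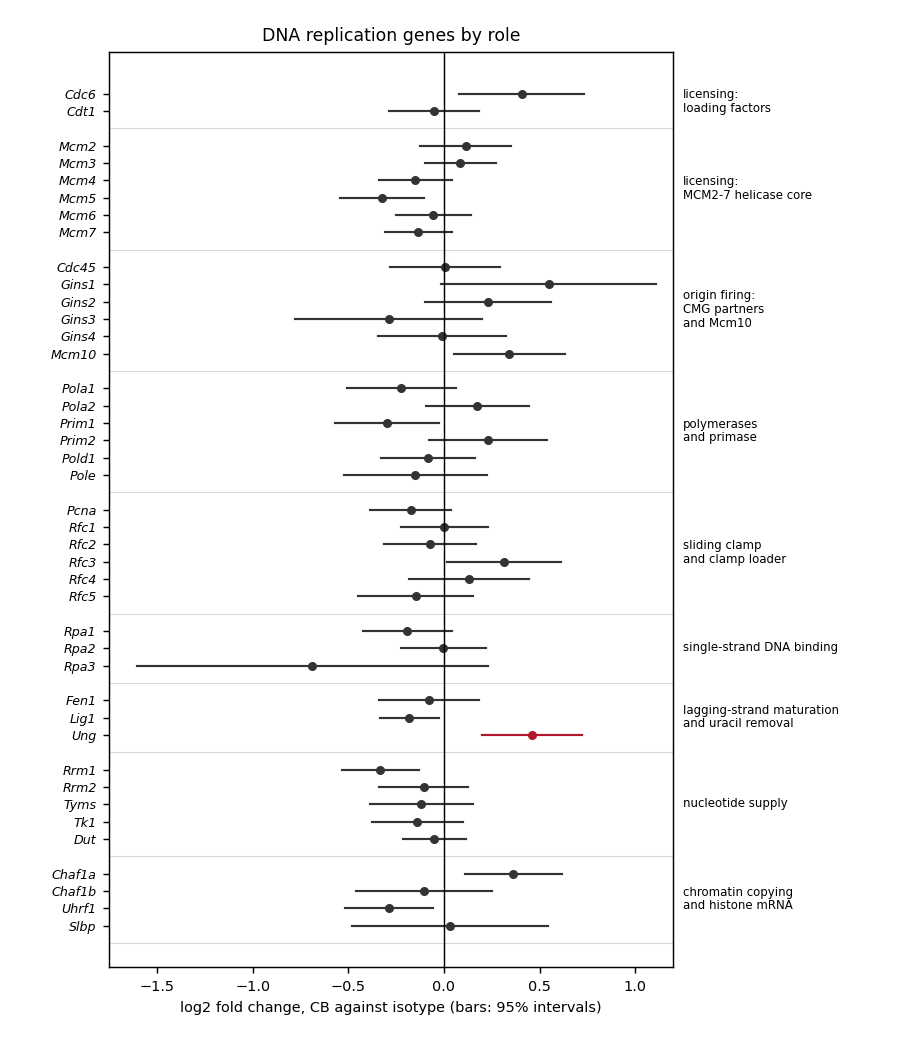
Log2 fold change of each DNA replication gene between CB and isotype (points, horizontal axis) with its 95% interval from edgeR (lines), ordered by role down the vertical axis. Ung, in red, is the 1 member with an adjusted p under 0.05, and Rpa3 and Gins1 have the widest intervals.

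The samples of CB and isotype did not overlap for 13 of the 41 members (31.7%). Under CB, 5 were higher in each mouse than in any isotype mouse (Ung, Chaf1a, Cdc6, Rfc3 and Prim2) and 8 were lower (Rrm1, Mcm5, Uhrf1, Lig1, Prim1, Pcna, Rpa1 and Tk1). Over all genes tested, 10.4% had such separation upwards and 9.62% downwards, 20% in all. Among the 2570 genes of like counts 40.3% had it in either direction, 23% upwards and 17.3% downwards. The share among the members lay between these backgrounds.

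Ung (ENSMUSG00000029591, chr5:114130386-114139323) encodes uracil-DNA glycosylase, which removes uracil from DNA at the fork and after deamination. Its level was 90.9, 93.8 and 85.8 CPM in the isotype mice, 113, 125 and 104 CPM with anti-PD-L1, 90.5, 98.1 and 108 CPM with anti-Lag3, and 133, 130.3 and 109 CPM with CB. Each CB mouse stood above all isotype and all anti-Lag3 mice, while CB and anti-PD-L1 overlapped. Ung was higher by 0.46 on the log2 scale in CB than in isotype (SE 0.13, 95% interval 0.20 to 0.72, adjusted p = 0.0359 by edgeR). The call was lost when any of the 3 isotype mice or CB mouse 1 or 2 was left out, with adjusted p-values up to 0.154, and when libraries were scaled by total counts (adjusted p = 0.0649). With CB mouse 3 left out, the log2 fold change was 0.55. Against isotype, anti-PD-L1 gave 0.34 [0.08 to 0.60] and anti-Lag3 gave 0.13 [−0.13 to 0.40], neither of them called (adjusted p = 0.525 and 0.986).

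The licensing factors moved unequally. Cdc6 (ENSMUSG00000017499, chr11:98907801-98923940), the ATPase that recruits the helicase to origins, had 62.9, 71.6 and 77.1 CPM in isotype, 87.3, 76.6 and 89.8 CPM with anti-PD-L1, 69.0, 97.2 and 117 CPM with anti-Lag3, and 85.3, 104 and 91.2 CPM with CB. All CB mice lay above all isotype mice, and the anti-Lag3 mice spanned both groups. The CB difference was 0.41 [0.08 to 0.73] on the log2 scale and was not called (adjusted p = 0.182). Its partner Cdt1 had a log2 fold change of −0.05 [−0.29 to 0.19], with mean levels of 180 ± 11.1 CPM in isotype and 174 ± 2.82 CPM in CB (SD, n = 3).

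Among the 6 subunits of the Mcm2-7 helicase, 4 log2 fold changes were negative and 2 positive, with a median of −0.09 and 0 called. Mcm5 (ENSMUSG00000005410, chr8:75109569-75128439) had 365, 401 and 385 CPM in isotype, 367, 379 and 312 CPM with anti-PD-L1, 368, 318 and 324 CPM with anti-Lag3, and 354, 288 and 279 CPM with CB. The CB mice were below all isotype mice, with CB mouse 1 close to the lowest of them. Its log2 fold change was −0.32 [−0.54 to −0.10], short of the threshold (adjusted p = 0.0933 by edgeR). Without CB mouse 1 it was −0.44 and passed (adjusted p = 0.0281).

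Mcm2 (ENSMUSG00000002870, chr6:88883474-88898780), a commonly used proliferation marker, had 248, 236 and 289 CPM in isotype, 278, 306 and 271 CPM with anti-PD-L1, 273, 293 and 273 CPM with anti-Lag3, and 337, 245 and 254 CPM with CB. CB mouse 1 was the highest of the 12 and the other CB mice lay within the isotype range. The log2 fold change of 0.11 [−0.12 to 0.35] was not called (adjusted p = 0.741) and turned to −0.045 without that mouse. The other subunits had log2 fold changes of 0.09 (Mcm3), −0.15 (Mcm4), −0.06 (Mcm6) and −0.13 (Mcm7), all with overlapping groups.

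The factors that activate the helicase included the highest point estimate of the list. Gins1, a GINS subunit, had 16.1, 21.2 and 38.7 CPM in isotype and 39.6, 33.2 and 38.2 CPM with CB. The groups overlapped, as isotype mouse 3 matched the CB mice, and the log2 fold change of 0.55 [−0.01 to 1.11] was not called (adjusted p = 0.348). Mcm10, which helps the assembled helicase to start, had a log2 fold change of 0.34 [0.05 to 0.63] (adjusted p = 0.216). The other GINS subunits gave 0.23 (Gins2), −0.29 (Gins3) and −0.01 (Gins4), and the helicase partner Cdc45 gave 0.01 [−0.28 to 0.29]. These 6 genes had 0 calls and a median of 0.12.

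Primase and polymerase subunits had a median log2 fold change of −0.12 with 0 of 6 called. Prim1 (ENSMUSG00000025395, chr10:128015168-128030037), the catalytic primase subunit, had 98.9, 124 and 105 CPM in isotype, 79.6, 92.8 and 92.1 CPM with anti-PD-L1, 92.0, 77.3 and 88.2 CPM with anti-Lag3, and 85.9, 87.7 and 92.9 CPM with CB. All 9 mice given a blocking antibody lay below all 3 isotype mice. The log2 fold changes against isotype were −0.35 [−0.62 to −0.07] for anti-Lag3, −0.30 [−0.57 to −0.02] for CB and −0.31 [−0.58 to −0.04] for anti-PD-L1. None was called (adjusted p = 0.805, 0.274 and 0.586 by edgeR), and the 3 contrasts share the isotype mice.

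Prim2, the regulatory primase subunit, had the opposite sign in CB, at 0.23 [−0.08 to 0.54], with 44.3, 53.3 and 55.3 CPM in isotype and 59.7, 62.9 and 56.8 CPM in CB. The 2 groups did not overlap, although the interval includes 0. The catalytic subunit of polymerase alpha, Pola1, gave −0.22 [−0.51 to 0.06] and its partner Pola2 gave 0.18 [−0.10 to 0.45]. Pold1 and Pole, the catalytic subunits of polymerases delta and epsilon, gave −0.09 and −0.15.

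At the sliding clamp, Pcna (ENSMUSG00000027342, chr2:132249162-132253314) had 340.2, 372 and 384 CPM in isotype, 321, 320 and 381 CPM with anti-PD-L1, 373, 348 and 435 CPM with anti-Lag3, and 333, 329 and 309 CPM with CB. The CB mice were below the isotype and anti-Lag3 mice and overlapped with anti-PD-L1. The difference from isotype was −0.17 [−0.38 to 0.04] on the log2 scale and was not called (adjusted p = 0.421). Of the 5 clamp loader subunits, Rfc3 had 0.32 [0.02 to 0.61] (adjusted p = 0.296), while Rfc1, Rfc2, Rfc4 and Rfc5 ranged from −0.15 (Rfc5) to 0.13 (Rfc4) with overlapping groups.

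The 3 subunits of replication protein A, which coats single-stranded DNA, had negative or near-zero estimates and 0 calls. Rpa1 had 245, 249 and 245 CPM in isotype and 214, 217 and 217 CPM with CB, and its log2 fold change was −0.19 [−0.42 to 0.04]. The CB and isotype values were each close together and apart from the other group, and the anti-PD-L1 mice ranged from 216 to 307 CPM. The test takes its spread from all 4 groups. With only CB and isotype in the fit, Rpa1 was not called either, and the reason was not tested. Rpa2 gave −0.00 [−0.22 to 0.22]. Rpa3, the member with the fewest reads, gave −0.69 [−1.60 to 0.23], with 8.66, 16.5 and 40.7 CPM in isotype and 5.97, 17.3 and 17.6 CPM with CB. Its highest value was 6.81 times its lowest over the 12 mice, the widest range in the list, and the groups overlapped.

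In lagging-strand maturation, Lig1, the ligase that joins Okazaki fragments, had 1148, 1141 and 1101 CPM in isotype and 1065, 959 and 966 CPM with CB. The CB mice lay below the isotype mice, and the log2 fold change of −0.18 [−0.34 to −0.03] had the narrowest interval of those that did not include 0 (adjusted p = 0.227 by edgeR). The flap nuclease gene Fen1 gave −0.08 [−0.34 to 0.18].

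All 5 genes of nucleotide supply had negative log2 fold changes in CB, with a median of −0.12, and 0 were called. Rrm1 (ENSMUSG00000030978, chr7:102441695-102469771), the large subunit of ribonucleotide reductase, had 378, 356 and 381 CPM in isotype, 333, 296 and 343 CPM with anti-PD-L1, 330, 357 and 380.2 CPM with anti-Lag3, and 316, 302 and 268 CPM with CB. The CB mice were below all isotype and all anti-Lag3 mice and overlapped with anti-PD-L1. Its log2 fold change of −0.33 [−0.53 to −0.13] stood just short of the threshold (adjusted p = 0.0517), and it passed without anti-PD-L1 mouse 1 or 2 (adjusted p = 0.0476 and 0.0425) and under 6 of the other settings tried. The small subunit Rrm2 gave −0.11 [−0.34 to 0.13]. Thymidylate synthase (Tyms) gave −0.12, thymidine kinase (Tk1) −0.14 and the dUTPase gene Dut −0.05 [−0.21 to 0.12]. Dut varied least among the members, with its highest library 1.11 times its lowest.

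Among the chromatin genes, Chaf1a (ENSMUSG00000002835, chr17:56040439-56072289), the large subunit of the histone chaperone CAF-1, had 128, 118 and 164 CPM in isotype, 157, 147 and 145 CPM with anti-PD-L1, 127, 138 and 149.5 CPM with anti-Lag3, and 185, 169 and 174 CPM with CB. Each CB mouse was above all 9 other mice. The log2 fold change against isotype was 0.36 [0.11 to 0.62] and was not called (adjusted p = 0.107), but was 0.51 and called without isotype mouse 3 (adjusted p = 0.0223). Exons of Ubxn6 on the opposite strand cover 943 of the last 1000 exonic bases of Chaf1a, and whether reads were counted by strand is not given in the sources used here. Reads of Ubxn6 may therefore be part of this value. Chaf1b, the next CAF-1 subunit, gave −0.11 [−0.46 to 0.25]. Uhrf1, which brings the maintenance DNA methyltransferase to newly copied DNA, gave −0.29 [−0.52 to −0.06] (adjusted p = 0.175), and Slbp, which binds histone mRNA, gave 0.03 [−0.48 to 0.55]. The same uncertainty of strand applies to Fen1, Gins2, Mcm7, Rfc2, Rfc4 and Rfc5, whose 3′ ends also overlap exons of opposite-strand genes.

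**Figure D2:**
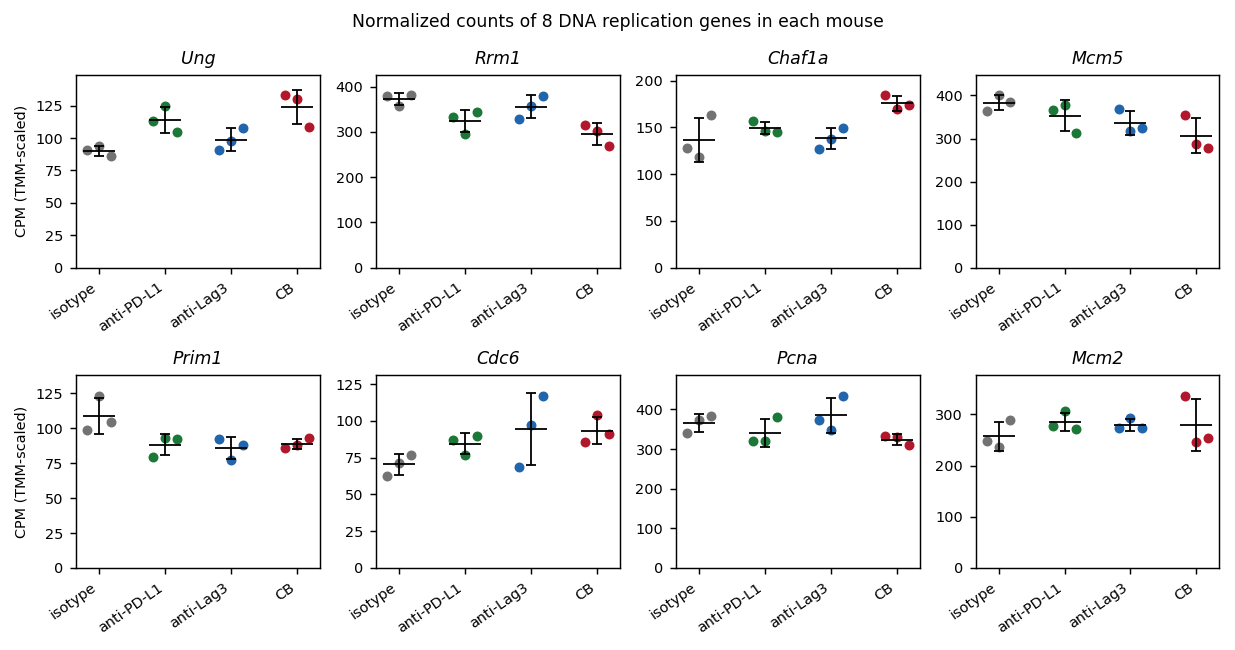
TMM-scaled CPM (vertical axes, from 0) of 8 DNA replication genes in each of the 4 groups, with 1 point per mouse and bars for the mean ± SD (n = 3). All CB points lie above all isotype points for Ung, Chaf1a and Cdc6 and below them for Rrm1, Mcm5, Prim1 and Pcna, and CB mouse 1 stands apart for Mcm2.

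Set against the single antibodies, CB gave 0 calls among the members. Against anti-PD-L1, where 0.37% of all genes were called, 3 members had an unadjusted p under 0.05 by edgeR and 4 by DESeq2. These 3, all lower in CB, were Pola1 (−0.33), Rpa1 (−0.31) and Lig1 (−0.16). Against anti-Lag3, where 0.694% of all genes were called, 8 members had an unadjusted p under 0.05 by edgeR and 9 by DESeq2, and the smallest adjusted p was 0.27. By edgeR, Gins2 (0.44), Chaf1a (0.35), Mcm10 (0.34) and Ung (0.33) had positive log2 fold changes, and Pola1 (−0.35), Rrm1 (−0.27), Pcna (−0.25) and Mcm4 (−0.23) negative ones. Over all 15138 genes, 1432 had an unadjusted p under 0.05 by edgeR in the contrast with anti-Lag3 and 1374 in that with anti-PD-L1. The CB and anti-Lag3 mice did not overlap for 10 members (24.4%), beside 14.8% of all genes. The CB and anti-PD-L1 mice did not overlap for 2 members (4.88%), beside 12.7% of all genes. Both comparisons use the same 3 CB mice. The shares of all genes include genes of low counts. Shares among genes with counts like the members' were not computed here, so these shares are not compared at equal depth.

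Each single antibody against isotype also gave 0 calls among the members, beside 0% of all genes for anti-Lag3 and 0.033% with anti-PD-L1. For anti-PD-L1, 5 members had an unadjusted p under 0.05 by edgeR (6 by DESeq2): Prim2 (0.36), Ung (0.34), Rfc3 (0.32), Prim1 (−0.31) and Rpa3 (−1.04). For anti-Lag3 these were Cdc6 (0.42) and Prim1 (−0.35), 2 genes by each tool. Over all 15138 genes, 1187 had an unadjusted p under 0.05 by edgeR for anti-PD-L1 and 788 for anti-Lag3. The median log2 fold change of the members was −0.02 for anti-Lag3 and 0.01 with anti-PD-L1. Between anti-PD-L1 and anti-Lag3, where 0% of all genes were called, 0 members were called and 3 had an unadjusted p under 0.05 by each tool, Gins2 (0.38), Pold1 (0.27) and Rpa1 (0.24), higher with anti-PD-L1. In this comparison 710 of all 15138 genes had an unadjusted p under 0.05 by edgeR.

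The interaction, the log2 effect of CB beyond the sum of the effects of each antibody alone, asks whether the effect of 1 antibody differed in the presence of the other. It gave 0 calls among the members and 0% over all genes. An unadjusted p under 0.05 was found for 898 of all 15138 genes by edgeR, and for 1 member by each of edgeR and DESeq2. This was Pola1, at −0.46 (SE 0.19, adjusted p = 0.804). Its levels were 106, 126 and 112 CPM in isotype, 153, 114 and 105 CPM with anti-PD-L1, 124, 127 and 126 CPM with anti-Lag3 and 110.0, 88.6 and 96.6 CPM with CB. The CB mice lay below all anti-Lag3 mice and overlapped with isotype and anti-PD-L1. For Ung the interaction was −0.01 [−0.38 to 0.36]. In the test of any difference among the 4 groups, 2.15% of all genes and 0 members were called by edgeR (5 members at an unadjusted p under 0.05, with Ung the smallest at an adjusted p of 0.149), and DESeq2's likelihood ratio test called 2, Rrm1 and Ung.

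In each mouse the members lay on both sides of the isotype mean. Relative to the isotype mean, 16, 16 and 14 of the 41 members were higher in the 3 CB mice, and between 14 and 24 were higher in single isotype mice. The mean log2 difference over the members was between −0.04 and 0.00 in the CB mice, which lay inside the range of −0.06 to 0.07 in the isotype mice. With anti-Lag3 it was −0.06 to 0.05, and with anti-PD-L1 −0.05 to 0.07. The summed level of the members, in which abundant genes weigh more, was 8556 to 9085 CPM with CB and 9016 to 9271 CPM in isotype. It was 8853 to 9272 CPM with anti-Lag3 and 8980 to 9533 CPM with anti-PD-L1. After removal of group means, the median correlation over the 820 pairs of members across the 12 libraries was 0.04, a description that shares library scaling among all pairs.

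**Figure D3:**
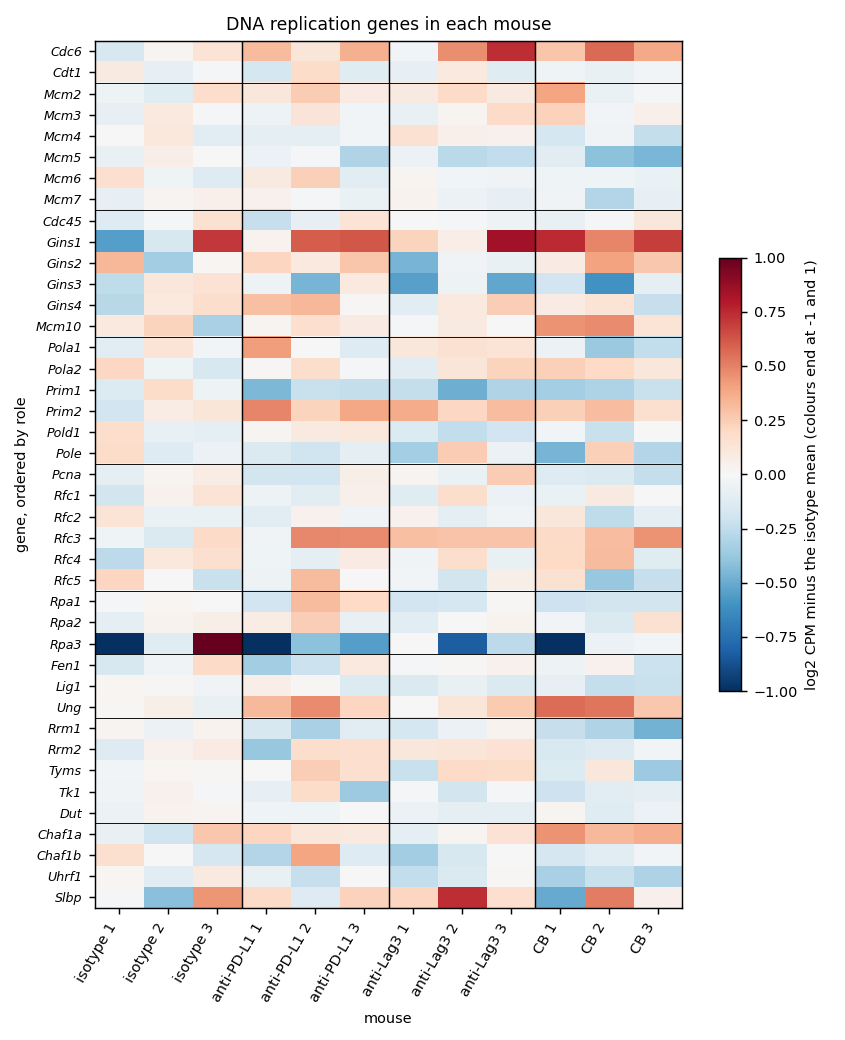
Log2 CPM of each DNA replication gene (vertical axis, by role, with lines between roles) in each of the 12 mice (horizontal axis), minus the mean of the 3 isotype mice. Red is higher and blue lower, with colours ending at −1 and 1. Rpa3, Gins1 and Slbp vary most across the 12 mice, and in the CB columns Ung, Chaf1a and Cdc6 are red and Rrm1, Mcm5 and Prim1 blue in all 3 mice.

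Other genes of the same process and of later cell cycle steps were described beside the members. Of 62 other replication genes, 30 had positive and 32 negative log2 fold changes between CB and isotype and 4 (6.45%) were called. Over all genes tested, 4.29% were called, and 14.5% among the 2570 genes with mean counts like those of most members. Dctpp1, which clears abnormal cytosine nucleotides, was higher by 0.62 (adjusted p = 0.00256). The type II topoisomerase gene Top2a fell by 0.46 (adjusted p = 0.00223), the maintenance methyltransferase gene Dnmt1 fell by 0.46 (adjusted p = 0.0169) and the histone chaperone gene Asf1b fell by 0.46 (adjusted p = 0.0359). The median of this list was −0.00, while its summed level was 7507 to 7773 CPM with CB, below the 7846 to 8148 CPM of isotype. Without isotype mouse 1, CB mouse 1 or CB mouse 3, 2 of the 4 calls were kept, Dctpp1 and Top2a. Without CB mouse 1, Top1 was called as well, and without isotype mouse 2 the call of Asf1b was lost.

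Of 22 E2F family members and regulators of the G1 to S transition, 3 (13.6%) were called, all lower in CB. They were cyclin A2 (Ccna2, −0.41, adjusted p = 0.0334) and the CDK inhibitor genes Cdkn1b (−0.65, adjusted p = 0.00969) and Cdkn2d (−0.46, adjusted p = 0.011). Leaving out isotype mouse 1 gave 0 of these calls, and leaving out CB mouse 1 or CB mouse 3 gave 1. The 13.6% called stood beside 4.29% of all genes and 14.5% of the 2570 genes with mean counts like those of most members. The summed level of the list was 1503 to 1630 CPM with CB, below the 1710 to 1778 CPM of isotype. The E2F activator genes themselves were not called by edgeR, with log2 fold changes of 0.12 (E2f1), −0.34 (E2f2) and 0.09 (E2f3), but E2f2 was called lower by DESeq2's test against 0 and with the replicate number as a block.

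Of 24 mitotic genes, 23 had negative log2 fold changes and 4 (16.7%) were called, all lower in CB. They were Nusap1, a spindle protein gene, which fell by 0.73 (adjusted p = 0.000648), the proliferation marker Mki67, which fell by 0.59 (adjusted p = 0.0014), the spindle motor gene Kif11, which fell by 0.59 (adjusted p = 0.00349), and the mitotic kinase gene Aurkb, which fell by 0.58 (adjusted p = 0.0229). The 16.7% called stood beside 4.29% of all genes and 14.5% of the 2570 genes with mean counts like those of most members. The median of the mitotic list was −0.28 and that of the DNA replication genes −0.07. In single mice the mean log2 difference of the mitotic list from isotype was −0.35 to −0.21 with CB, −0.05 to 0.02 in isotype, −0.27 to −0.03 with anti-PD-L1 and −0.19 to −0.07 with anti-Lag3. The summed level of the list was 4393 to 4936 CPM with CB and 5252 to 5756 CPM in isotype. Ccnb1, at 0.17, was the 1 mitotic gene with a positive value. The difference between the lists was not tested.

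**Figure D4:**
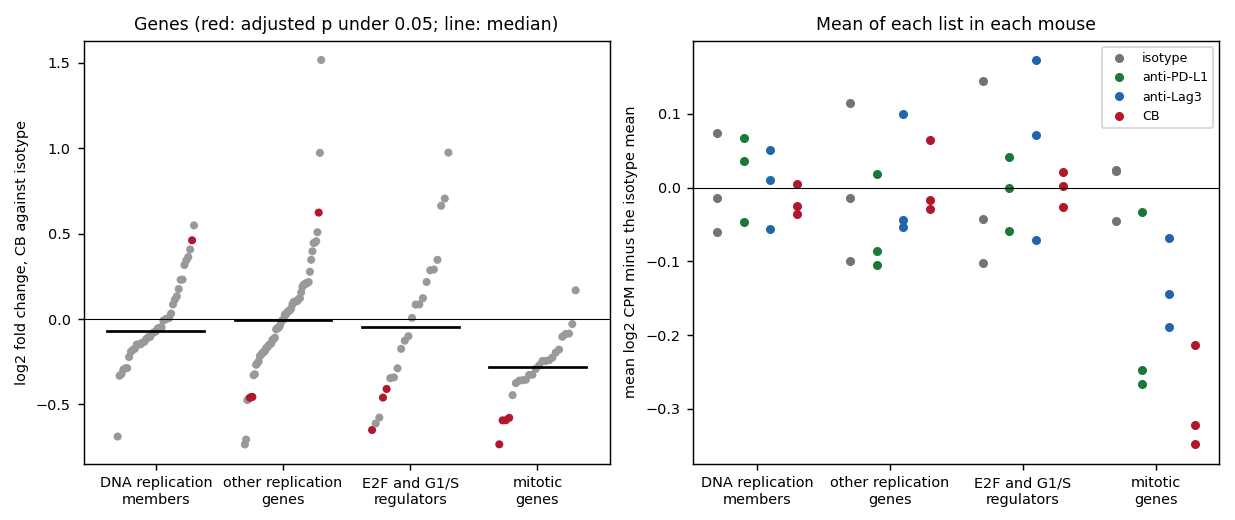
Left, log2 fold change between CB and isotype (vertical axis) of each gene in 4 lists, with red points for an adjusted p under 0.05 and lines for medians of −0.07, −0.00, −0.05 and −0.28 from left to right. Right, mean log2 CPM of each list minus the isotype mean, with 1 point per mouse. By this mean of log2 values, the CB points of the DNA replication genes lie within the isotype range, and those of the mitotic genes lie below it.

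Markers of T cells and of other cells also differed between CB and isotype, where 4.29% of all genes were called. Of 7 CD4 T cell markers, Cd4 (−0.50) and Cd3e (−0.39) were called lower in CB, and the summed level of the list was 1620 to 1752 CPM in CB against 1935 to 2028 CPM in isotype. Of 9 genes of the red cell lineage, Hbb-bs (−0.75) and Hbb-bt (−0.99) were called lower and the transferrin receptor gene Tfrc (0.76), which activated T cells also express, was called higher. Their summed level was 253 to 328 CPM in CB and 320 to 500 CPM in isotype, and the defining gene Klf1 stayed at or below 4.05 CPM. Of 5 NK cell markers, Gzma fell by 1.49 and was called, while Ncr1 and Eomes stayed at or below 1.78 and 1.92 CPM. None of the B cell (8), myeloid (9) or CD8 T cell (2) markers was called, nor any of the 3 of 5 germinal centre B cell markers that passed the filter, and the summed myeloid level was 6.55 to 27.2 CPM over all mice. Among these 4 lists, 4 genes in all had an unadjusted p under 0.05, 3 myeloid and 1 CD8 T cell marker. The part of these transcripts in the values of the DNA replication genes was not tested.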

How the data were processed

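Sequencing reads of 12 libraries made with an oligo-dT primed 3′ mRNA kit were trimmed by the authors with Cutadapt 1.18, mapped to GRCm38 with STAR 2.6.1a and counted on genes with FeatureCounts 1.6.4, keeping uniquely mapped reads. The annotation release and strand setting are not given in the sources used here. The deposited table holds raw counts for 56691 genes and 114 spike-in rows, which took 0.719% to 1.29% of counts and were left out. A second table deposited by the authors holds rlog values, shrunken log2 values from DESeq2, used here only in an alternative. Symbols and coordinates came from GENCODE M21. The 15138 genes with at least 30 reads in sum were fitted with edgeR 4.0.16 (R 4.3.3), with TMM scaling and 4 group means over all 12 samples, quasi-likelihood tests and p-values adjusted by Benjamini-Hochberg over all genes (threshold 0.05). Intervals are 95% intervals from the same fit, and log2 fold changes carry a prior count of 0.125. Alternatives used DESeq2 1.42.0, limma 3.58.1, other scalings and filters, the replicate number as a block, and each sample left out in turn. The fits were tested on simulated data. Lists were described by counts and medians, without a test. The members, the lists of other genes and the tests were chosen with earlier results of these data known. Every member is named, and values in each mouse are given for those called in CB against isotype, filled to 6 by the smallest p of edgeR's test of any difference among the 4 groups, for Pcna and Mcm2, and for others chosen after their values were seen (Gins1, Prim2, Rpa1, Rpa3, Lig1, Pola1). Genes of other lists are named where called, and E2f1, E2f2, E2f3 and Ccnb1 were added after their values were seen. As nothing states more than 1 library per mouse, the spread is that between mice. No 2 libraries of the same group agreed within counting noise. Of the columns of samples, 0 were left unused.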

Additional observations from a re-analysis of the deposited data

How the results depend on the processing

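The count of 1 member called between CB and isotype depended on the setting. It was 5 with DESeq2's Wald test against 0 (Chaf1a and Ung higher, Lig1, Mcm5 and Rrm1 lower), 3 with limma on the rlog values (Mcm5, Rrm1 and Ung), 2 with DESeq2's size factors and 2 with edgeR's own filter (Rrm1 and Ung), 2 with total counts in place of TMM (Mcm5 and Rrm1) and 0 with edgeR or DESeq2 testing against a log2 fold change of 0.2. It was 1 without the filter on low counts and 1 with only the groups compared in the fit. Leaving out 1 mouse at a time gave 0 to 2 calls, with 0 without isotype mouse 1, isotype mouse 2 or CB mouse 2. The any-difference test called 2 members with DESeq2. Every other comparison gave 0 members called under each alternative run. The replicate block gave 3 members (Mcm5, Rrm1 and Ung) and 5 E2F and G1/S regulators. Samples of the same number in different groups correlated at −0.06 to 0.12 over 10448 genes (median 0.06), over 0.1 in 2 of 18 pairs. Samples of different number and group correlated at −0.13 to 0.07 (median −0.01), and 8 of 12 samples were closest to their own number. The 4 conditions were sorted together in batches, but the labels do not state whether the numbers mark them. The main fit did not take the numbers as pairs, and whether they mark batches was not tested. The members' median of −0.07 was −0.11 with total counts, which moved the median of all genes to −0.03, and −0.10 to −0.05 with mice left out. With mice left out, the log2 fold change of Mcm2 ranged from −0.045 (without CB mouse 1) to 0.20. Of 62 other replication genes, 11 were called by DESeq2 against 0, 0 against 0.2 and 2 by edgeR against 0.2, and 2 to 5 with mice left out. For E2F and G1/S regulators the counts were 0 by DESeq2 and 1 by edgeR against 0.2, and 0 to 4 with mice left out. For mitotic genes they were 7 by DESeq2 against 0 and 3 to 5 with mice left out. The cause of these shifts was not tested. Rpa3, with the fewest reads of the members, and Gins1 had the widest intervals, and the part of depth in this was not tested.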
